A study of Mus musculus with 3 samples.

Results

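Solute carriers are membrane proteins that move amino acids, sugars, ions, metals, nucleosides and metabolites across the plasma membrane or the membranes of organelles, and their symbols begin with Slc and a family number. They were followed here as every gene whose single annotated symbol matched that pattern and was not Slc40a1 or Slc16a3. The annotation held 107 such genes on 147 probes, and 79 genes had a value other than 0 on all 3 arrays, of 6077 genes measured in that way in the whole table. Of the other 28 genes, 6 reached values on 2 arrays, 4 on 1 array, and 18 were listed at 0 throughout. The measured share of genes was 73.8%, against 76.1% for all 7984 genes with 1 symbol.

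The series holds 1 group of 3 two-colour arrays. On each array the red dye, Cy5, labelled cRNA from purchased mouse spleen total RNA, and the green dye, Cy3, labelled cRNA from a purchased universal reference RNA, a pool made from mouse cell lines. Both were amplified in a single round. Nothing on strain, age, sex or the pooling of animals was stated for the spleen product. One product is named for each RNA, so p-values measure only the spread between arrays, which may be technical. The deposited value is a log ratio of unstated base and numerator. A positive value is read as likely higher in spleen, because spleen is in red and red over green is the usual order. The titles name the reference first, and the opposite order would turn every sign given here. The dyes ran the same way on every array, so dye and RNA source cannot be told apart. In whole-tissue RNA, fewer cells of a type and less RNA per cell cannot be told apart either.

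Marker lists were measured alongside. All 6 measured B and T lymphocyte markers (of 11 listed), all 6 erythroid markers (of 11) and all 3 macrophage markers (of 9) were positive, with medians of 3.22, 2.56 and 1.35. Of 14 measured exocrine pancreas markers, 13 were positive, with a median of 3.95 and a range from -0.14 (the lipase Cel) to 5.22 (Reg2). All 4 measured fibroblast markers were negative, with a median of -2.29. Of 6 stomach markers 2 were positive and 1 negative, and the 1 liver marker measured, Ttr, was at 1.90. Of the annotated markers without a value on every array, Csf1r and Vcam1 (macrophage) and Sparc (fibroblast) were listed at 0 on all 3. The erythroid enzyme Alas2 had -0.63 on array 1 and 0 on the others, on the other side of 0 from the 6 measured erythroid markers. The part of these cell types in the ratios below was not tested. The exact 0 was deposited for 24.2% to 26.8% of the probes of an array and was read as no measurement.

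As background, the amino acid carriers include the light chains and heavy chains that bring essential amino acids into growing cells, and sodium-coupled carriers that concentrate small neutral ones. Sugar carriers comprise facilitative and sodium-coupled transporters at the cell surface and the nucleotide sugar carriers that feed glycosylation in the Golgi apparatus. The Slc25 family sits mainly in the inner mitochondrial membrane and passes nucleotides, organic acids, cofactors and iron. In the spleen, red cells carry the anion exchanger band 3 and a urea transporter, and platelets carry the serotonin transporter.

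The promoters of the 3 highest and the 3 lowest members past the test that have a window in the RefSeq table are printed here. They show the sequence at the start of genes toward both ends of the range. Slc47a1, the lowest member of all, and Slc25a27, which is lower than Slc25a1, are not among them. Each window covers 250 bases before and 50 bases after the first-listed start in build GRCm38.p6, read 5′ to 3′ along the gene. Capitals mark matches on either strand to AGATAA (the GATA factors), CCAAT (NF-Y), GGGCGG (the GC box), GAGGAA (the core of PU.1 sites) and TATAAA (the TATA box). Slc6a4 lies at chr11:76998347-76998646 (+), Slc28a2 at chr2:122426185-122426484 (+), Slc45a3 at chr1:131962665-131962964 (+), Slc5a11 at chr7:123214616-123214915 (+), Slc25a24 at chr3:109122899-109123198 (+) and Slc25a1 at chr16:17928170-17928469 (-).
Slc6a4: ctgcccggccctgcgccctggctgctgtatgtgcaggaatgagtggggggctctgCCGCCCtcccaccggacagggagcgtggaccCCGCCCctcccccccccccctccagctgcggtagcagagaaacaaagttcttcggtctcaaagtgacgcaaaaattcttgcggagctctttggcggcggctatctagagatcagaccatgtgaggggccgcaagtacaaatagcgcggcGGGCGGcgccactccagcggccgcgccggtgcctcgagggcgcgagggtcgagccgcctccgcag
Slc28a2: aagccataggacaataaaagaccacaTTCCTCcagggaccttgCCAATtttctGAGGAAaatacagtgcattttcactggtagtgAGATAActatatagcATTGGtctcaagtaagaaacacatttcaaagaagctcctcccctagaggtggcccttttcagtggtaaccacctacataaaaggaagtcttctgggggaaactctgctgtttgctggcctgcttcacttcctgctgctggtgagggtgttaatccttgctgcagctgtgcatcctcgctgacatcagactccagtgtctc
Slc45a3: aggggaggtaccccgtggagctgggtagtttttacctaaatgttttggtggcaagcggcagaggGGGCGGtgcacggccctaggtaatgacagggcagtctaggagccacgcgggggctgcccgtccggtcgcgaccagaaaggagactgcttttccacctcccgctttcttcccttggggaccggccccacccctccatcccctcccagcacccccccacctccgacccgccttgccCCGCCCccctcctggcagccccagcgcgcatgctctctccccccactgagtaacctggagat
Slc5a11: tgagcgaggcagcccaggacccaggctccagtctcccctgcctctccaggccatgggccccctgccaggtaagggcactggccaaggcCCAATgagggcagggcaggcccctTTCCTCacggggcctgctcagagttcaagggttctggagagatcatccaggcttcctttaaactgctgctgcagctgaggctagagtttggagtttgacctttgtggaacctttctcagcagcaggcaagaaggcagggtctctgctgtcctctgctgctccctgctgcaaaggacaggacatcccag
Slc25a24: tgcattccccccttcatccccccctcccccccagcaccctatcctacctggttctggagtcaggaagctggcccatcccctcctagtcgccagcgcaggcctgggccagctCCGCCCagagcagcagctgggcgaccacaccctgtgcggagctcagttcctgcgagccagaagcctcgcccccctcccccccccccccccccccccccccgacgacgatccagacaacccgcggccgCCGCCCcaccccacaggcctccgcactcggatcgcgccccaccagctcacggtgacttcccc
Slc25a1: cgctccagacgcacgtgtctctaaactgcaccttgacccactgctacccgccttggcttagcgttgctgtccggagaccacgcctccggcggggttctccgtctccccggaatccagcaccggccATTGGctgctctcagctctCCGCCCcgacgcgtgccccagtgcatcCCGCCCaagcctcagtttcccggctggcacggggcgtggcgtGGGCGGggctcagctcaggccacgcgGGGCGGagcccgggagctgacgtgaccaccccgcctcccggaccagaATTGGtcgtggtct

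The Slc28a2 window held 1 CpG dinucleotide and 46.7% G and C, with 1 GATA, 2 NF-Y and 2 PU.1 core matches and no GC box. The Slc5a11 window, the lowest gene printed, held 2 CpG dinucleotides. The other four held 17 to 30 CpG dinucleotides and 2 to 4 GC boxes, so CpG-rich and CpG-poor windows occurred among both the high and the low genes printed. Over the 61 members with a window, 63.9% held a GC box, against 54.7% of 4916 first-listed windows of genes tested and 35.7% of all 32851 windows. AGATAA was found in 6.56% of the members' windows, 7.81% of the windows of genes tested and 11.2% of all windows. CCAAT was found in 32.8%, 38.7% and 37.4%, GAGGAA in 24.6%, 25.5% and 28.3%, and TATAAA in 8.20%, 8.99% and 13.6%. Across the 61 members, Spearman's rho between the mean log ratio and the CpG count of the window was -0.029, and across the 4916 genes it was -0.063. These matches describe letters in a window and are not evidence of binding.

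As a family, the solute carriers lay on both sides of 0. With limma's test of the mean ratio against 0 (Benjamini-Hochberg adjusted p under 0.05 over all genes), 54 of the 79 genes passed, which is 68.4% against 70.3% of all genes. Positive calls were made for 30 members (38%, against 33.2% of all genes) and negative calls for 24 (30.4%, against 37.1%). The median log ratio of the members was 0.05, between the quartiles of -0.26 and 0.46, and that of all genes was -0.03. Of the 54 calls, 23 had an absolute mean under 0.5, and the smallest was 0.21. That count was not made over all genes. The median absolute mean was 0.37 for the members and 0.36 for all genes tested. A called mean of 1 or more was found for 7 members (8.86%, against 7.57% of all genes) and a called mean of -1 or less for 5 members (6.33%, against 6.58%). These shares are near the background and say nothing particular of the family. Against a 1.5-fold change, base 2 assumed, 10 members stayed positive and 6 negative, beside 1208 of all 6077 genes called in either direction. Without moderated variance 22 members stayed positive and 11 negative, beside 2770 of the 6077 genes.

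The members' values were alike between arrays, as were those of all genes. Between pairs of arrays, Pearson's r ran from 0.956 to 0.976 across the 79 genes and from 0.957 to 0.972 across all 6077, a description of genes that share the same arrays. The sign was the same on all 3 arrays for 65 members. Array 2 was the array farthest from the gene's mean for 33 members, and arrays 1 and 3 for 23 each. These counts were not made over all genes and say nothing particular of the family.

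**Figure D1:**
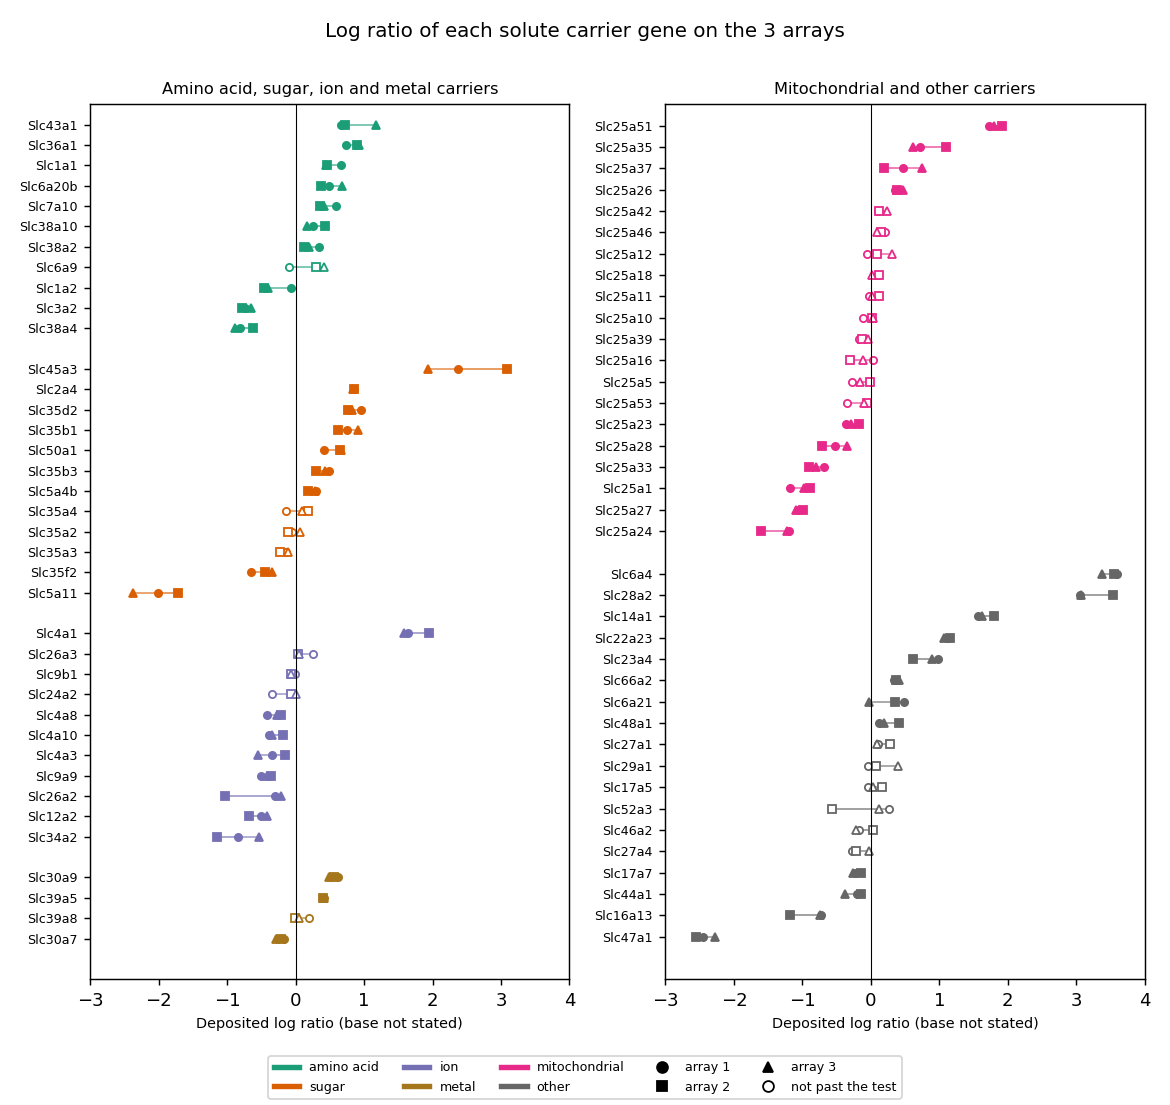
Log ratio of 76 solute carrier genes on each of the 3 arrays (x axis, deposited log ratio, base not stated; y axis, genes ordered by mean within their class; circles, squares and triangles, arrays 1 to 3; open symbols, not past the limma test). The 3 genes that match the symbol pattern without being carriers are left out; Slc6a4, at 3.38 to 3.59, and Slc47a1, at -2.55 to -2.28, mark the ends.

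Symbols alone do not make a carrier. Slc9a3r2 encodes a scaffold protein that binds sodium/hydrogen exchangers and had 0.49 ± 0.041 (SD, n = 3). Slc7a6os and Slc6a19os are genes on the strand opposite to a carrier, with -0.25 ± 0.12 (SD, n = 3) and -0.05 ± 0.17 (SD, n = 3). Slc9a3r2 and Slc7a6os passed the test and Slc6a19os did not, and the call of Slc7a6os ended without array 3 (-0.19, limma adjusted p = 0.148) and with 0 kept (0.0841). With a running median over 5 neighbouring probe numbers on either side subtracted, Slc9a3r2 was at 0.31. The other 76 genes were placed in the classes amino acid (11 measured of 14), sugar (12 of 15), ion (11 of 14), metal (4 of 7), mitochondrial (20 of 23) and other (18 of 30) by family number. Members of Slc5, Slc6 and Slc13 were placed by substrate, while Slc16 and Slc17 were kept whole among the remaining carriers, so that class holds Slc17a7, a glutamate carrier. Slc35 and Slc45 were kept whole in the sugar class. It therefore holds Slc35b3, a carrier of the sulfate donor PAPS, and Slc45a3, of a family of putative sugar carriers.

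The classes differed in which sign their calls took. Amino acid, sugar and metal carriers had medians of 0.28, 0.33 and 0.24, ion carriers -0.30, mitochondrial carriers -0.07 and the remaining carriers 0.15. On arrays 1 to 3 the median of the amino acid class was 0.34, 0.36 and 0.41 and that of the ion class -0.35, -0.18 and -0.27. The sugar class had medians of 0.36, 0.24 and 0.36, the metal class 0.30, 0.20 and 0.23, the mitochondrial class -0.08, 0.01 and -0.01, and the remaining carriers 0.11, 0.22 and 0.11. On the deposited values the ion class was lowest and the mitochondrial class next on all 3 arrays, while amino acid and sugar carriers changed order between arrays. This order depended on the processing: with the running median over 5 probe numbers subtracted, the ion median was -0.0418 and the mitochondrial median, -0.0665, was the lowest, and over 20 probe numbers the ion median was -0.16. The sugar median was 0.18 with the median over 5 probe numbers. With 0 kept, which adds the genes listed at 0, the sugar median was 0.024 and the metal, mitochondrial and remaining medians were 0. Over 20 probe numbers the remaining carriers had a median of 0.074, and the mitochondrial median lay between -0.15 and 0 over all settings tried. No test of a difference between classes was run, and within each class single genes reached both signs.

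**Figure D2:**
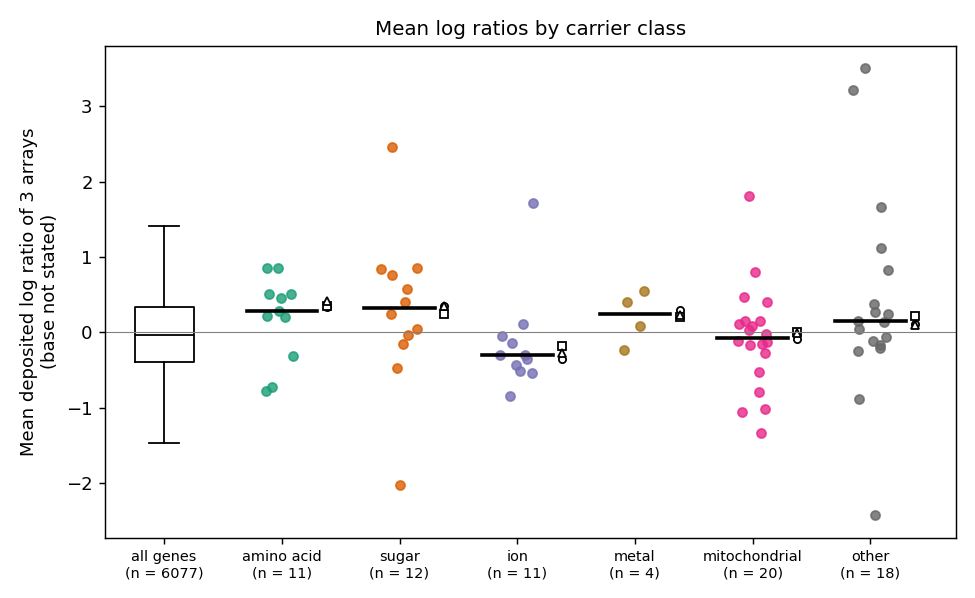
Mean log ratio of each gene by carrier class (y axis, mean of 3 arrays, base not stated; thick lines, class medians; open symbols to the right, the class median on arrays 1, 2 and 3 as circle, square and triangle). The box gives the quartiles and median of all 6077 genes, with whiskers to 1.5 times the interquartile range; the ion median of the deposited values, -0.30, is the lowest (with the median over 5 probe numbers subtracted it is -0.0418 and the mitochondrial median -0.0665), and every class holds genes on both sides of 0.

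Amino acid carriers were called in 10 of 11 cases, beside 70.3% of all genes, 7 positive and 3 negative. The shares were 63.6% and 27.3%, against 33.2% and 37.1% of all genes. Slc43a1, a carrier of large neutral amino acids, had log ratios of 0.67, 0.72 and 1.18 on arrays 1 to 3. Slc36a1, which exports small amino acids from lysosomes with protons, had 0.73, 0.89 and 0.93. Both were above 0 on each array and their ranges overlapped, with means of 0.85 ± 0.28 and 0.85 ± 0.11 (SD, n = 3; limma adjusted p = 0.000294 and 3.32e-05). Slc1a1, a glutamate carrier of neurons and epithelia, had 0.66, 0.45 and 0.44. Slc6a20b, an imino acid carrier, had 0.49, 0.38 and 0.68, and Slc7a10, an exchanger of small neutral amino acids, 0.59, 0.36 and 0.41. These 3 overlapped, and each lay below Slc36a1 on every array.

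On the other side, Slc3a2, the heavy chain of CD98 that carries amino acid transporter light chains to the surface, had -0.74, -0.79 and -0.66 (mean -0.73 ± 0.066, SD, n = 3; limma adjusted p = 5.03e-05). Slc38a4, a system A carrier of neutral amino acids expressed in liver and placenta, had -0.81, -0.63 and -0.88 (limma adjusted p = 7.21e-05). Their ranges overlapped with each other and were clear of all positive members. Slc1a2, the main glutamate carrier of astrocytes, had -0.07, -0.47 and -0.41, and its call ended without array 2 (-0.24, limma adjusted p = 0.0681) and with 0 kept as a value (adjusted p = 0.149).

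The smaller positive calls were those of Slc38a10 (0.28 ± 0.13, SD, n = 3) and of Slc38a2 (0.22 ± 0.11, SD, n = 3), the system A carrier induced by amino acid shortage. The call of Slc38a2 ended without array 1 (0.16, limma adjusted p = 0.167), without array 3 (0.23, 0.0741) and with 0 kept (0.0898), and that of Slc38a10 with 0 kept (0.0780). Slc6a9, a glycine carrier, did not pass (-0.10, 0.30 and 0.41). It passed without array 1 (0.35, adjusted p = 0.0161). After the values were seen, close relatives were set side by side: Slc38a2 lay 0.99 ± 0.21 (SD, n = 3) above Slc38a4, and Slc1a1 0.83 ± 0.10 (SD, n = 3) above Slc1a2, without overlap and with no test. With that running median over 5 probe numbers subtracted, Slc38a2 was at 0.38, Slc3a2 moved to 0.05 (adjusted p = 0.379), Slc6a20b to 0 (its call ended) and Slc7a10 to 0.84; over 20 probe numbers Slc3a2 stayed negative at -0.36.

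The genes around amino acid supply did not lie on one side. Of 8 measured genes in a list of 17 for amino acid sensing and supply, 3 were positive and 4 negative, with a median of -0.09. Among all genes 33.2% were positive and 37.1% negative. Chac1, which degrades glutathione and is induced by the amino acid response factor ATF4, had -2.20, -2.71 and -1.94, the lowest of the list. Ddit3, a stress transcription factor, had -0.84, -0.69 and -0.94 and moved to -1.28 with the median over 5 probe numbers. The kinase Mtor had 0.47, 0.10 and 0.53, and its call ended without array 1 (0.31, limma adjusted p = 0.0699) and with 0 kept (0.131), while the median over 5 probe numbers put it at 0.77. Without array 1 the calls of Eif2ak4 (-0.17, 0.148), Rragd (-0.23, 0.0602) and Ddit4 (0.23, 0.150) ended too, and without array 3 that of Eif2ak4 (-0.20, 0.133); these 3 genes were named after their values were seen.

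Genes of the sugar class, not all of them established sugar carriers, were called positive in 7 of 12 cases (58.3%, against 33.2% of all genes). Negative calls were made for 2 (16.7%, against 37.1%). The highest was Slc45a3, known as prostein and placed by its family with putative sugar carriers, with 2.37, 3.09 and 1.94. Its mean was 2.47 ± 0.58 (SD, n = 3; limma adjusted p = 2.54e-05), which is 5.52-fold if the base is 2 and 11.8-fold if the logs are natural. Its spread was the widest of all members, yet its lowest array lay above every other member of the class. Slc2a4, the insulin-responsive glucose transporter GLUT4 of muscle and fat, had 0.86, 0.85 and 0.84, a spread of 0.011 (SD, n = 3). Slc35d2, a nucleotide sugar carrier of the Golgi apparatus, had 0.95, 0.77 and 0.83, and Slc50a1, the SWEET-type sugar carrier of mammals, 0.42, 0.65 and 0.67.

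Slc35b1, a member of the nucleotide sugar family in the endoplasmic reticulum, had 0.75, 0.62 and 0.92. With the running median over 5 probe numbers it fell to 0.09 and its call ended (limma adjusted p = 0.0937), while Slc50a1 moved to 0.90. Slc35b3, which carries the sulfate donor PAPS, had 0.40 ± 0.10 (SD, n = 3), moved to 0.19 under that setting. Slc5a4b, of the sodium/glucose family, had 0.25 ± 0.058 (SD, n = 3) over 3 probes. The call of Slc5a4b ended without array 1 (0.23, adjusted p = 0.0649), without array 3 (0.24, 0.0643) and with the median over 5 probe numbers (0.05, 0.125). Its probe of lowest SD stood at 0.41, and with the median over 20 probe numbers it was at 0.14.

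The lowest sugar carrier was Slc5a11, a sodium-coupled carrier of myo-inositol, with -2.01, -1.71 and -2.37. Its mean was -2.03 ± 0.33 (SD, n = 3; limma adjusted p = 6.51e-06), a size of 4.08-fold in base 2 and 7.61-fold in natural logs. No other sugar carrier came near it. Slc35f2 had -0.65, -0.44 and -0.34, and its call ended with the median over 5 probe numbers (-0.28, adjusted p = 0.188). The Golgi carriers Slc35a2, of UDP-galactose, Slc35a3, of UDP-N-acetylglucosamine, and Slc35a4 did not pass, with means of -0.03, -0.16 and 0.05. With the median over 5 probe numbers all 3 passed, Slc35a2 at -0.28 (limma adjusted p = 0.00484), Slc35a3 turned to 0.22 (0.0374) and Slc35a4 at 0.17 (0.0137). Over 20 probe numbers Slc35a4 passed at 0.36 (0.00387) and Slc35a3 stood at 0.055 without a call. Within Slc35, of which 7 of 8 genes were measured, the means ran from -0.48 to 0.85. The family had 3 positive calls (42.9%, against 33.2% of all genes) and 1 negative call (14.3%, against 37.1%). The negative call, that of Slc35f2, and the positive call of Slc35b1 depended on the processing.

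Of 11 ion carriers, 7 were called negative (63.6%, against 37.1% of all genes), 1 was positive (9.09%, against 33.2%) and 3 did not pass. Without moderation 2 were called negative, and against a 1.5-fold change 0 were (limma, 1 at an unadjusted p under 0.05). The 1 positive call was Slc4a1, band 3, the chloride/bicarbonate exchanger that anchors the red cell skeleton, with 1.64, 1.94 and 1.59. Its mean was 1.72 ± 0.19 (SD, n = 3; limma adjusted p = 2.92e-06), 3.30-fold in base 2 and 5.61-fold in natural logs. A second probe of Slc4a1 was listed at 0, and with 0 kept the mean was 0.86. The erythroid markers lay between 1.55 and 3.22, and their part in this ratio was not tested. The red cell membrane list gave little further: 1 of its 15 genes was measured, Xk, which did not pass (0.71, -0.15 and 0.61). Xk passed as positive with arrays centred (0.42), with the median over 20 probe numbers (0.30), without array 2 (0.66) and without array 3 (0.28).

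Other Slc4 members, known from nerve cells or heart, were lower. Slc4a3, an anion exchanger, had -0.35, -0.16 and -0.54, Slc4a10 -0.38, -0.18 and -0.34, and Slc4a8 -0.41, -0.21 and -0.27. Slc4a8 and Slc4a10 are sodium-driven bicarbonate carriers. These 3 overlapped with one another and none reached 0. Slc4a1 lay 2.02 ± 0.15 (SD, n = 3) above Slc4a8, a pair chosen after the values were seen and not tested. These small calls depended on the processing. Those of Slc4a10 and Slc4a8 ended without array 1 (-0.26 and -0.24, limma adjusted p = 0.0509 and 0.0548), and that of Slc4a3 with 0 kept (0.101). With the median over 5 probe numbers Slc4a3 turned to 0.05 (adjusted p = 0.317), and Slc4a8 turned to 0.18 and was called positive (adjusted p = 0.0162). Slc4a10 moved to -0.75, and over 20 probe numbers Slc4a3 moved to -0.01, Slc4a10 to -0.19 and Slc4a8 to -0.16.

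The lowest ion carrier was Slc34a2, the sodium/phosphate cotransporter of lung and intestine, with -0.83, -1.14 and -0.54 (mean -0.84 ± 0.30, SD, n = 3; limma adjusted p = 0.000407). It moved to -0.55 and -0.47 with the medians over 5 and 20 probe numbers. Slc12a2, the sodium/potassium/chloride cotransporter NKCC1, had -0.51, -0.69 and -0.42, and Slc9a9, an endosomal sodium/hydrogen exchanger, had -0.51, -0.36 and -0.42. Those ranges overlapped, and Slc9a9 moved to -0.25 with the median over 5 probe numbers. Slc26a2, a sulfate carrier needed in cartilage, had -0.31, -1.04 and -0.21. Array 2 set its mean of -0.52, which was -0.26 without that array, and its call ended with 0 kept (limma adjusted p = 0.214). Slc24a2, Slc9b1 and Slc26a3 did not pass, at -0.14, -0.05 and 0.11. Slc26a3 passed as positive with the medians over 5 and 20 probe numbers (0.22 and 0.33, limma adjusted p = 0.0124 and 0.00194), which put Slc24a2 at 0.20 and 0.072 without a call. Slc9b1 passed as negative with its probe of lowest SD (-0.23, 0.0111).

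The sodium pump supplies the gradient that many of these carriers use, and basigin and embigin chaperone lactate carriers. Of 6 measured genes in a list of 12, 3 were positive and 2 negative (33.2% and 37.1% among all genes), with a median of 0.20. Bsg, basigin, had -1.08, -0.93 and -1.11, the pump subunit Atp1b1 -0.75, -0.52 and -0.74, and the pump subunit Atp1b3 0.34, 1.06 and 0.51. The subunits thus lay on opposite sides without overlap. With 0 kept the calls of Atp1b1 (-0.48, limma adjusted p = 0.123) and Atp1b3 (0.64, 0.114) ended. With the median over 5 probe numbers Bsg was at -0.68 and Atp1b3 at 0.38, and with that over 20 Atp1b1 was at -0.40. The call of Fxyd5, named after its value was seen, ended without array 1 (0.24, 0.0548), without array 2 (0.20, 0.0550) and without array 3 (0.16, 0.230).

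Metal carriers were few: 4 of 7 genes were measured, 2 positive, 1 negative and 1 not past the test. So few genes support no comparison with the 33.2% positive and 37.1% negative calls among all genes. Slc30a9, a zinc carrier found in mitochondria, had 0.61, 0.55 and 0.50 (mean 0.55 ± 0.060, SD, n = 3; limma adjusted p = 0.000196). Slc39a5, a zinc importer of pancreas, intestine and kidney, had 0.41 on each array (mean 0.41 ± 0.0026, SD, n = 3; adjusted p = 0.000742). Its probes stood at 0.57 and 0.25, so the agreement between arrays is that of their average. The exocrine pancreas markers, 13 of 14 positive, mostly shared the sign of Slc39a5, and their part in its ratio was not tested.

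Slc30a7, which loads zinc into the Golgi apparatus, had -0.17, -0.22 and -0.29, with probes at -0.40 and -0.05. Its call ended without array 3 (-0.20, limma adjusted p = 0.134), with the median over 20 probe numbers (-0.02, 0.744) and with the probe of lowest SD (-0.05, 0.457). With 0 kept its mean was -0.15. Slc39a8, a zinc and manganese importer, was at 0.08 and did not pass. The copper importers Slc31a1 and Slc31a2 were listed at 0 on all arrays.

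Of 7 measured metal handling genes in a list of 19, 3 were positive and 3 negative (33.2% and 37.1% among all genes), with a median of -0.16. Atp7a, a copper pump, had 0.85, 0.90 and 0.91, while Mt1, a metallothionein that binds zinc and copper, had -1.17, -1.41 and -1.08. Cp, the copper-bearing ferroxidase ceruloplasmin, had -1.12, -1.31 and -1.12. With 0 kept, the means of Mt1 and Cp were -0.61 and -0.59, and with the median over 5 probe numbers that of Cp was -0.70. Ftl1 and Atox1 were the other two positive genes, at 0.28 and 0.24, named after their values were seen. Their calls ended without array 2 (0.22 and 0.18, limma adjusted p = 0.0914 and 0.107). The same held when array 3 was left out (0.22 and 0.20; 0.0968 and 0.127).

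Mitochondrial carriers, all of family Slc25, held the largest share of genes without a call among the 6 classes: 4 of 20 were positive, 6 negative and 10 did not pass, beside the 70.3% of all genes that passed. The highest was Slc25a51, the carrier that brings NAD into mitochondria, with 1.72, 1.91 and 1.80. Its mean was 1.81 ± 0.096 (SD, n = 3; limma adjusted p = 7.75e-07), 3.51-fold in base 2 and 6.12-fold in natural logs. All 3 arrays lay above every other mitochondrial carrier. Slc25a35, an orphan member, had 0.72, 1.09 and 0.61. Slc25a26, which imports S-adenosylmethionine, had 0.36, 0.38 and 0.46, and moved to 0.25 with the median over 5 probe numbers.

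Iron enters mitochondria through a pair of mitoferrins. Slc25a37, mitoferrin 1, which serves heme synthesis in developing red cells, had 0.48, 0.20 and 0.74 (mean 0.47 ± 0.27, SD, n = 3; limma adjusted p = 0.00522). Slc25a28, mitoferrin 2, found in most tissues, had -0.52, -0.71 and -0.34 (mean -0.52 ± 0.18, SD, n = 3; adjusted p = 0.00103). They did not overlap, and their difference was 1.00, 0.90 and 1.08 on arrays 1 to 3, or 1.00 ± 0.091 (SD, n = 3). The pair was chosen after the values were seen and was not tested. The call of Slc25a37 ended when 0 was kept (adjusted p = 0.111). Slc25a28 lost its call with the median over 5 probe numbers (-0.35, 0.0654). The erythroid markers, all 6 positive, shared the sign of Slc25a37. Their medians were 2.46, 2.75 and 2.48 on arrays 1 to 3, and their part in its ratio was not tested.

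The lowest mitochondrial carrier was Slc25a24, a calcium-regulated exchanger of ATP-magnesium and phosphate, with -1.19, -1.60 and -1.23 (mean -1.34 ± 0.23, SD, n = 3; limma adjusted p = 1.56e-05). Slc25a27, an uncoupling-protein relative known from brain, had -1.07, -0.99 and -1.10, and Slc25a1, the citrate exporter that feeds lipid synthesis, -1.18, -0.89 and -0.97. Slc25a33, a pyrimidine nucleotide carrier, followed with -0.69, -0.91 and -0.80. The ranges of Slc25a27 and Slc25a1 overlapped, and Slc25a24 was below both on each array. With the median over 5 probe numbers Slc25a24, Slc25a27 and Slc25a1 moved to -0.51, -0.43 and -0.56 and kept their calls.

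Slc25a23, a second ATP-magnesium/phosphate exchanger, had -0.36, -0.17 and -0.29, and lay 1.07 ± 0.32 (SD, n = 3) above Slc25a24, a pair seen first and not tested. Its call ended without array 1 (-0.23, limma adjusted p = 0.0652). Another probe of Slc25a23 was not measured on every array, and with it the mean turned to 0.44 on probes measured on at least 2 arrays (adjusted p = 0.0626) and to 0.47 with 0 kept (0.264). The negative call therefore rests on 1 probe. It moved to -0.11 with the median over 5 probe numbers.

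The 10 mitochondrial carriers without a call all had means between -0.17 and 0.15. They include Slc25a5, the main ADP/ATP carrier of proliferating cells, at -0.28, -0.01 and -0.16. They also include the metabolite carriers Slc25a10 of dicarboxylates (-0.02), Slc25a11 of oxoglutarate (0.04), Slc25a12 of aspartate and glutamate (0.11), Slc25a18 of glutamate (0.08) and Slc25a42 of coenzyme A (0.15), and the outer membrane protein Slc25a46 (0.15). Slc25a39, a glutathione carrier needed for heme synthesis, was at -0.12 over 6 probes, and Slc25a16 and Slc25a53 were at -0.13 and -0.17. Several passed under another setting. Slc25a5 did without array 2 (-0.22, limma adjusted p = 0.0355), on at least 2 arrays (-0.22, 0.0340) and with its probe of lowest SD (-0.22, 0.0244). Their probes of lowest SD also gave calls to Slc25a39 (-0.69, 6.61e-05), Slc25a11 (0.22, 0.0123) and Slc25a10 (-0.18, 0.0430), and the median over 20 probe numbers gave one to Slc25a18 (0.15, 0.0350). With arrays centred on their medians Slc25a46 and Slc25a42 passed (0.18 each, 0.0389 and 0.0392).

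Pores and helper genes of the mitochondrial membranes were all negative. Of a list of 13, 5 were measured and all 5 were called, with a median of -0.57. The calcium uniporter Mcu had -0.75, -0.90 and -0.64, the pyruvate carrier subunit Mpc1 -0.61, -0.97 and -0.63, and the outer membrane channel Vdac2 -0.47, -0.79 and -0.46. The background share of negative calls is 37.1%, and a list of 5 genes supports no comparison with it. Vdac2 moved to -0.27 with the median over 5 probe numbers. The others, named after their values were seen, were the carrier homologs Mtch1 (-0.56) and Mtch2 (-0.27), and the sign of Mtch2 depends on its probes, since the probe with the lowest SD stood at 2.35.

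The extremes of the whole family lay among carriers outside these classes, where 8 of 18 genes passed as positive and 4 as negative, and 6 did not pass. The shares called were 44.4% positive and 22.2% negative, against 33.2% and 37.1% of all genes, and 66.7% in either direction, against 70.3%. The highest member of all was Slc6a4, the serotonin transporter, which loads platelets with serotonin, with 3.59, 3.55 and 3.38. Its mean was 3.51 ± 0.11 (SD, n = 3; limma adjusted p = 5.77e-08), 11.4-fold in base 2 and 33.3-fold in natural logs. Slc28a2, a sodium-coupled importer of purine nucleosides, had 3.06, 3.54 and 3.07 (mean 3.22 ± 0.27, SD, n = 3; adjusted p = 4.18e-07), 9.32-fold in base 2 and 25-fold in natural logs. The ranges of these genes overlapped, and among other members only Slc45a3, at 3.09 on array 2, reached into that of Slc28a2. With the median over 5 probe numbers Slc6a4 moved to 2.31.

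Slc14a1, the urea transporter UT-B of red cells, had 1.57, 1.80 and 1.62 (mean 1.66 ± 0.12, SD, n = 3; limma adjusted p = 1.41e-06). Its range overlapped that of Slc4a1, the other red cell carrier named here. The orphan Slc22a23, of the organic ion family, had 1.13, 1.15 and 1.07, and Slc23a4, of the ascorbate and nucleobase family, 0.98, 0.62 and 0.89. Slc23a4 moved to 0.39 with the median over 5 probe numbers. The PQ-loop protein Slc66a2 was at 0.37 ± 0.043 (SD, n = 3), with probes at 0.35 and 0.39.

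The heme transporter Slc48a1 was at 0.24 and the orphan Slc6a21 at 0.27, both at the edge of the test. Without array 2 the calls of Slc48a1 (0.16, limma adjusted p = 0.0916) and Slc6a21 (0.24, 0.133) ended, and without array 1 that of Slc6a21 (0.17, 0.256). Without array 3 Slc6a21 stood at 0.42, and with the median over 20 probe numbers at 0.49, while Slc48a1 was at 0.37 with that over 5. With 0 kept Slc48a1 fell to 0.09 (0.394) and the call of Slc6a21 ended (0.241), as it did with robust moderation (0.0503).

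The lowest member of all was Slc47a1, which exports organic cations in kidney and liver, with -2.46, -2.55 and -2.28. Its mean was -2.43 ± 0.14 (SD, n = 3; limma adjusted p = 3.22e-07), 5.38-fold in base 2 and 11.3-fold in natural logs. It overlapped with Slc5a11 alone. Slc16a13, of the monocarboxylate family, had -0.73, -1.18 and -0.74. Slc44a1, a choline carrier, and Slc17a7, a vesicular glutamate carrier of neurons, had -0.24 ± 0.12 and -0.21 ± 0.059 (SD, n = 3). The calls of Slc44a1 and Slc17a7 ended without array 1 (-0.26 and -0.20, limma adjusted p = 0.0612 and 0.0984). Leaving out array 3 ended both as well (-0.18 and -0.19; 0.183 and 0.150). Slc44a1 also lost its call with 0 kept (0.0816), and Slc17a7 with the median over 5 or 20 probe numbers (-0.03 in both).

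Those not past the test were the fatty acid carriers Slc27a4 (-0.17) and Slc27a1 (0.15), the sialic acid exporter of lysosomes Slc17a5 (0.05), the nucleoside carrier Slc29a1 (0.14), Slc46a2 (-0.12) and the riboflavin carrier Slc52a3. Slc52a3 had 0.26, -0.56 and 0.12, so its mean of -0.06 ± 0.44 (SD, n = 3) describes no array. Slc46a2 passed without array 2 (-0.19, limma adjusted p = 0.0479), and Slc27a1 passed with arrays centred (0.18, 0.0464).

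**Figure D3:**
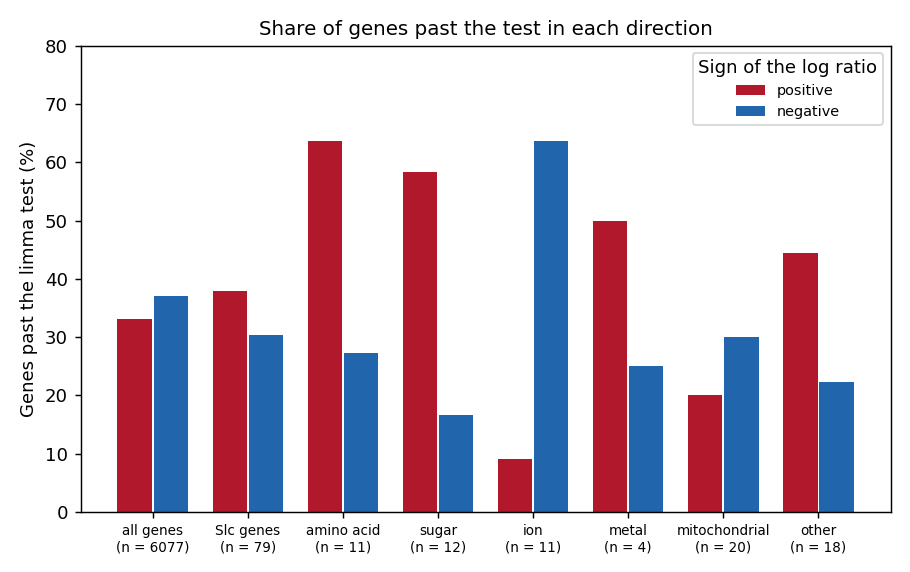
Share of measured genes past the limma test with a positive or a negative log ratio (y axis, percent, from 0), for all 6077 genes, the 79 Slc genes and the 6 carrier classes. Positive calls make up 63.6% of amino acid and negative calls 63.6% of ion carriers, beside 33.2% and 37.1% of all genes; the classes hold 4 to 20 genes.

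For 17 members several probes were measured, which checks a gene's ratio from within the same arrays. At the probe level 7576 of 11086 probes passed (68.3%). Probes of 3 of the 17 genes were called in opposite directions (Slc26a3, Slc35a2 and Slc44a1), against 139 of 1491 genes (9.32%) in the whole table. The choline carrier Slc44a1 had a probe at -0.67, -0.59 and -0.98 and another at 0.26, 0.29 and 0.23. The chloride/bicarbonate exchanger Slc26a3 had probes at -0.21 and 0.43, and Slc35a2 at 0.28 and -0.34. For these genes a mean over probes hides a disagreement larger than the spread between arrays, and their gene-level sign is uncertain.

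Probes that agreed belonged to Slc39a5, Slc66a2 and Slc9a3r2, each with both measured probes positive and past the test. Slc12a2 had a pair of probes at -0.84 and -0.78 and another at 0.01. Of the 6 probes of Slc25a39, 1 stood at -0.69 and 1 at -0.22, both past the test, and the other four lay between -0.04 and 0.16 without passing. The remaining 62 members rest on 1 measured probe, and these include Slc6a4, Slc28a2, Slc45a3, Slc47a1 and Slc5a11 at the ends of the range.

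**Figure D4:**
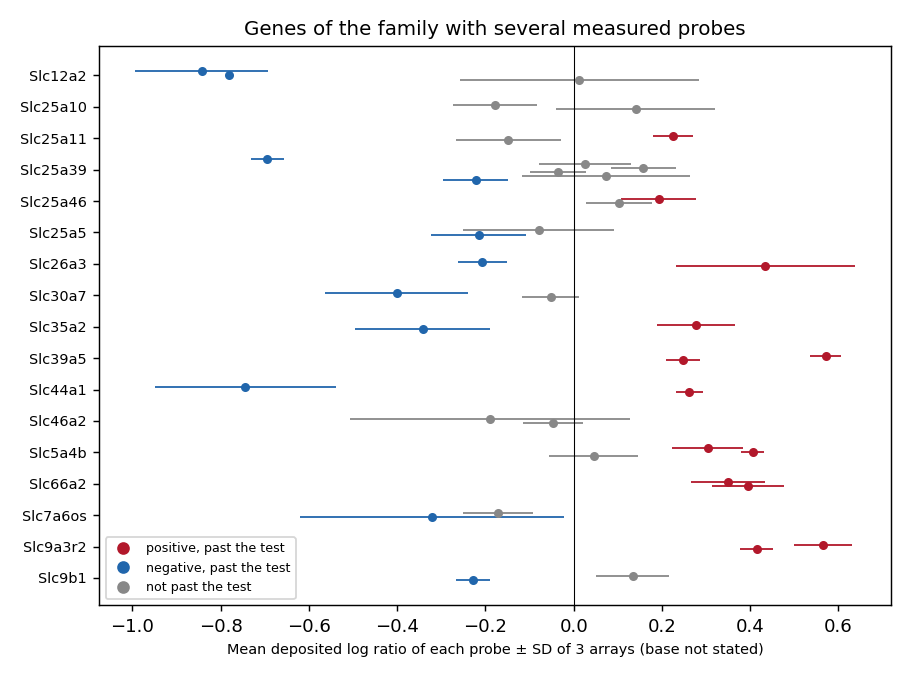
Mean log ratio of each probe of the 17 genes with several measured probes (x axis, mean ± SD of 3 arrays, base not stated; red, positive and past the test; blue, negative and past the test; grey, not past). Slc26a3, Slc35a2 and Slc44a1 have a red and a blue probe each, and the red and blue bars of a gene do not overlap.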

How the data were processed

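Per the labels, spleen cRNA in Cy5 and reference cRNA in Cy3 were hybridised together on 3 arrays (1 group). The authors deposited 1 signed score per probe and array for 16273 probes, read here as a log ratio. Of array type, background correction, normalization, log base and numerator, each is not given in the sources used here. Signal over background is unknown, and the number of arrays limits the precision. Exact 0 was read as no measurement. Gene names came from the platform annotation (12336 probes with 1 symbol, 61 with several, 3876 unnamed here). The gene IDs of all 147 Slc probes matched a RefSeq table of GRCm38.p6, with 0 symbols changed. Probes measured on all 3 arrays (8591 with 1 symbol) were averaged per gene.

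Each of 6077 gene means was set against 0 in an intercept model (R 4.3.3, limma 3.58.1, two-sided). Variances were moderated, and p-values were adjusted by Benjamini-Hochberg over all genes, with 0.05 as the threshold. The procedure was first tested on simulated data for 6077 genes, with 50 shifted upward by each size. It recovered 2 of 50 at a shift of 0.25, 28 at 0.5, 45 at 1 and 50 at 2, with 5 false calls. In the real data 70.3% of genes were called, in both directions. The simulation therefore cannot say how many small ratios were missed or wrongly called here. Classes follow the family number, with Slc5, Slc6 and Slc13 split by substrate, and genes on the opposite strand were set apart after the members were listed. Named genes were the 5 highest and 5 lowest calls per class, genes with opposing probes, the 3 with the widest spread and 3 per partner list; the remaining members are given to account for all 79, and these were named after their values were seen. The members, lists and other settings were chosen with earlier results of these data known. No column of another series was present. Figures used matplotlib 3.10.9 in Python 3.11.15.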

Additional observations from a re-analysis of the deposited data

How the results depend on the processing

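The settings tried were centring, 0 kept, at least 2 arrays, other ways to combine probes, robust or no moderation, a threshold of 0.01 on the adjusted p, testing beyond a 1.5-fold change (base 2 assumed), running medians over 5 or 20 probe numbers on either side, which hold the probe's own value and can remove real ratios, and leaving out each array. No paired analysis was possible because the arrays form 1 group. Of the 54 called members, 43 kept sign and call with 0 kept, 45 and 51 with the medians over 5 and 20 probe numbers. Without moderation 33 kept them, against a 1.5-fold change 16, and without 1 array 46 to 51. Among all genes, 4270 of 6077 were called as reported and 3263 of 7984 with 0 kept. The medians over 5 and 20 probe numbers gave 3972 and 4341 calls of 6077. Without moderation 2770 genes were called, against a 1.5-fold change 1208, and without 1 array 3660 to 4151. How many genes kept their call was counted for members only. The cause of these changes was not tested, beyond the stricter threshold of the 1.5-fold test and the lost variance sharing without moderation.

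Against a 1.5-fold change limma called 10 positive and 6 negative members, beside 1208 of 6077 genes in either direction. Positive and negative calls numbered 1 and 0 for amino acid carriers (2 negative at an unadjusted p under 0.05). They numbered 3 and 1 for sugar, 1 and 0 for ion (1 negative unadjusted) and 0 and 0 for metal carriers (0 unadjusted in either direction). For mitochondrial carriers they numbered 1 and 4, and for the others 4 and 1. Without moderation 11 members were negative; there were 3 positive amino acid, 1 negative sugar, 2 negative ion, 2 positive mitochondrial and 1 negative other carriers. Positive ion carriers numbered 3 and 2 with the medians over 5 and 20 probe numbers. Negative metal carriers numbered 0 with the median over 20 and with the probe of lowest SD (0 unadjusted in both), and 0 at an adjusted p under 0.01 (1 unadjusted), where 2 others were negative. Without 1 array in turn, negative metal carriers ranged from 0 (0 unadjusted) to 1 and negative others from 2 to 5.

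Among called members, signs turned for Slc3a2 (0.050), Slc4a3 (0.054) and Slc4a8 (0.18) with the median over 5 probe numbers, for Slc25a23 with 0 kept (0.47) and on at least 2 arrays (0.44), and for Slc44a1 (0.26) with the probe of lowest SD. Among members without a call, that probe turned Slc26a3 (-0.21) and Slc35a2 (0.28). The median over 5 probe numbers turned Slc35a3 (0.22), Slc24a2, Slc25a12, Slc25a46, Slc25a53, Slc27a1 and Slc6a19os. Slc52a3 turned with the medians over 5 and 20 probe numbers (0.14 and 0.10). Leaving out 1 array in turn, Slc52a3 ranged from -0.22 to 0.19 and Slc35a2 from -0.0848 to 0.00585, both turning without array 2.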

Other observations

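Slc genes with values on fewer than 3 arrays entered no test. Slc38a9, a lysosomal arginine sensor of the mTOR pathway, had 2.04 and 1.97 on arrays 1 and 2 and was listed at 0 on array 3. Its values exceed those of every amino acid carrier measured on all arrays, whose highest single value was 1.18. Slc22a15 had -0.58 and -0.47 on arrays 1 and 3, and the nucleoside carrier Slc29a2 -0.53 and -0.47 on arrays 2 and 3. The phosphate carrier Slc25a3 (0.04 and -0.07), the cationic amino acid carrier Slc7a2 (-0.13 and -0.16) and Slc13a1 (-0.16 and -0.12) lay close to 0. Slc16a10, an aromatic amino acid carrier, had 0.73 on array 2 alone, and Slc2a2, Slc35a5 and Slc39a9 had 1 value each, at -0.20, -0.10 and near 0.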
